A study of Rattus norvegicus with 78 samples.

Results

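Frontal cortex arrays with high and with low levels of Igfbp2 are described here. They were chosen by a measured value, the intensity of the single Igfbp2 probeset on each array, and not by a treatment. Of 39 arrays of the prefrontal/frontal cortex (P/FC), in a series of 78, the 13 with the highest intensity form the high-Igfbp2 group and the 13 with the lowest form the low-Igfbp2 group. The 13 arrays between them form the middle group. Each array carries RNA of the whole frontal lobe of the right hemisphere of 1 adult male rat, taken 1 week after a forced swim test that all the rats underwent. The rats belonged to the Flinders Sensitive Line (FSL), bred for a strong response to an anticholinesterase and used as a model of depression, or to its control, the Flinders Resistant Line (FRL), and came in 2 cohorts set up 6 months apart. Cohort 1 held 9 FSL and 12 FRL rats and cohort 2 held 8 FSL and 10 FRL rats. The same numbers of arrays were made from the hippocampus (HIP). The study took both regions from the same animals, but which arrays belong to 1 rat is not in the labels.

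Igfbp2 is a secreted protein that binds insulin-like growth factors and is known in the adult rodent brain from the leptomeninges and the choroid plexus. The meninges are layers of fibroblast-like cells that wrap the brain, deposit fibrillar collagen, make retinoic acid and carry, in the arachnoid, transporters that form a barrier towards the cerebrospinal fluid. They also hold vessels, macrophages and other immune cells, so that matrix, vessel and immune transcripts can each be read from them. In RNA of whole tissue, fewer cells of a type and less RNA per cell cannot be told apart.

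Igfbp2 ran from 205 to 539.9, with a median of 328, in the high-Igfbp2 arrays, against 30.1 to 76.2, with a median of 70.8, in the low-Igfbp2 arrays. The middle arrays lay between 76.3 and 196. These values chose the groups and carry no test. The lowest array of the high group (205, an FSL rat of cohort 1) and the highest array of the middle group (196, also FSL of cohort 1) were close to each other. At the other boundary the lowest middle array had 76.3 (FRL, cohort 1) and the highest low array had 76.2 (FRL, cohort 2), so that the lower boundary cuts through a run of nearly equal values. The high group held 5 FSL and 8 FRL arrays and the low group 8 FSL and 5 FRL arrays. By cohort, the high group held 6 of cohort 1 and 7 of cohort 2, and the low group 7 and 6. Line and cohort were therefore entered as covariates in each comparison.

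**Figure D1:**
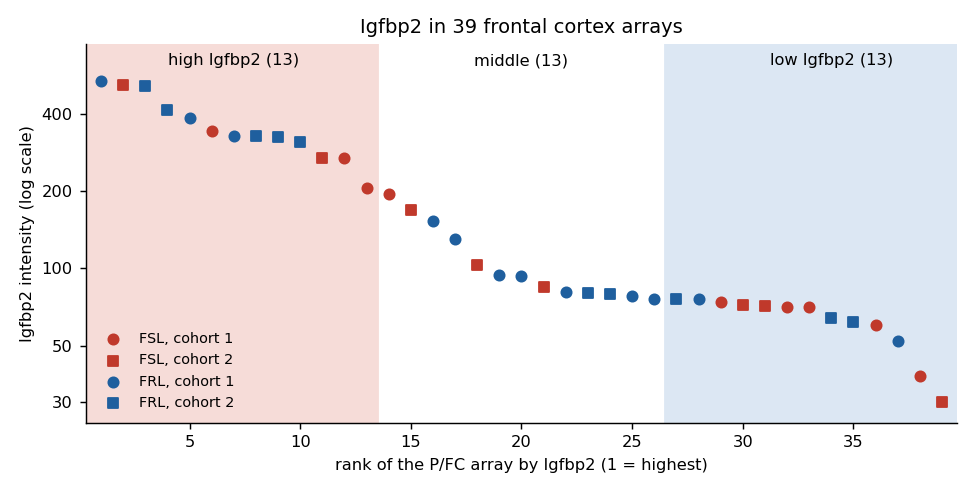
Intensity of Igfbp2 (log axis) in the 39 P/FC arrays, by rank from the highest to the lowest, with colour for line and symbol for cohort. Shaded bands mark the 13 arrays of the high group (205 to 539.9) and the 13 of the low group (30.1 to 76.2), and both groups hold arrays of each line and each cohort.

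None of 4 measures of array quality passed a test between the groups. For Gapdh, the log2 intensity of the 3' control probeset over the 5' one, which grows as RNA degrades, was 0.826 ± 0.124 in the high and 0.807 ± 0.0667 in the low group (SD, n = 13 each, two-sided permutation test, p = 0.637, adjusted over 4 measures 0.637). That of Actb was 0.777 ± 0.191 in the high and 0.743 ± 0.111 in the low group (permutation p = 0.61, adjusted 0.637). The median intensity of an array ran from 61.6 to 65.9 in the high and from 61.4 to 65.8 in the low group (permutation p = 0.314, adjusted 0.627). Slc17a7, the vesicular glutamate transporter of cortical excitatory neurons, was bright in both groups, from 1965 to 3266 in the high and from 2079 to 3400 in the low arrays.

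Chains of type I and type III collagen, markers of the leptomeninges such as Ptgds and the class II invariant chain Cd74 were among the transcripts higher in the high-Igfbp2 arrays, and none passed as lower. With limma and Benjamini-Hochberg adjustment over all 22369 kept probesets other than Igfbp2, 73 probesets (0.326%) were higher and 0 (0%) were lower at an adjusted p under 0.05. At that share a short gene list mostly holds 0 calls, so that 0 calls alone do not set a list apart. At an unadjusted p under 0.05 there were 493 higher and 330 lower, and a plain analysis of variance gave 64 higher and 1 lower after adjustment. The calls comprise 58 named genes, of which 5 had 2 or more called probesets, and 21 of the 73 probesets differed over 2-fold. The log2 differences ran from 0.30 to 2.31. In 23 of the 73 the groups did not overlap, against 0.103% of all kept probesets, which include these 23. The choice of the 73 by the gap between the groups favours such a result, so it is a description only. The p-values measure how closely a transcript goes with Igfbp2 across these arrays and describe an association between probesets read on the same RNA.

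The sequences before the start of Igfbp2 and of 3 of its closest followers are shown so that genes that moved together can be read side by side. They lie on chr9:81864561-81864810 (Igfbp2, plus strand), chr4:33518307-33518556 (Col1a2, plus), chr17:15258996-15259245 (Ogn, minus) and chr3:28682979-28683228 (Ptgds, minus). Each run holds the 250 bases before the annotated start in RefSeq on the GRCr8 build, 5' to 3' on the strand of the gene. The annotated start may not be the one used in brain tissue, which was not checked, so a run may include transcribed bases. Capitals mark matches on either strand to TATAAA (the core of a TATA box), to CCAAT (the core of a CCAAT box) or to GGGCGG (a GC box).
Igfbp2: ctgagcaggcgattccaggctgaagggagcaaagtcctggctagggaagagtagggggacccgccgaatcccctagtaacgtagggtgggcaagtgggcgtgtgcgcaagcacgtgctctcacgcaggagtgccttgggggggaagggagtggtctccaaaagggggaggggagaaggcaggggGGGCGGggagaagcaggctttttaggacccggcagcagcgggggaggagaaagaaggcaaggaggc
Col1a2: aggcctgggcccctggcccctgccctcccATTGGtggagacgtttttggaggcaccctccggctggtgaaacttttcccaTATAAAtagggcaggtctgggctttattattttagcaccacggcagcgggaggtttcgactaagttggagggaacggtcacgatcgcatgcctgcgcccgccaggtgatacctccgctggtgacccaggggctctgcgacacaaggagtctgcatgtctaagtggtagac
Ogn: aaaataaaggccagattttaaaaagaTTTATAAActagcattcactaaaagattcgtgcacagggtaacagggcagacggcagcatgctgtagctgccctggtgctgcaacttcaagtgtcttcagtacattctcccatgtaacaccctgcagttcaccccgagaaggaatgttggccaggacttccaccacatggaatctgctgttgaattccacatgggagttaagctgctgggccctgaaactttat
Ptgds: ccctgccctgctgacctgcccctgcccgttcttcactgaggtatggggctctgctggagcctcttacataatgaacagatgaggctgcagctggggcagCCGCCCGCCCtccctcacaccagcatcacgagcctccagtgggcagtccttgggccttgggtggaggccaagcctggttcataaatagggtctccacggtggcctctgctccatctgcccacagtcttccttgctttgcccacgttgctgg
Igfbp2 held 1 match to GGGCGG, Col1a2 held 1 to TATAAA and 1 to CCAAT, Ogn held 2 overlapping matches to TATAAA on opposite strands, and Ptgds held 2 overlapping matches to GGGCGG. The table of promoters matched 47 of the 58 named genes. TATAAA lay in 10 of these 47 (21.3%) and in 13.1% of all 27457 promoters of this length, CCAAT in 15 (31.9%) and in 34.3%, and GGGCGG in 29 (61.7%) and in 32.4%. The 27457 include genes that were not kept or not on the array. The shares among kept genes were not computed, so these values do not show a trait of the followers. A match is a run of letters and was not tested as a binding site.

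Among the matrix transcripts, the collagens of fibrous connective tissue stood out. Col1a2, a chain of type I collagen, ran from 119.6 to 523 with a median of 248 in the high-Igfbp2 arrays, against 27.4 to 113 with a median of 44.5 in the low-Igfbp2 arrays. The lowest high array lay above the highest low array, and the difference was the largest of all probesets (log2 2.31, SE 0.18, adjusted p = 1.81e-08). A second Col1a2 probeset differed by 1.75 (SE 0.17, adjusted p = 1.97e-07), also without overlap, and had 8 low arrays under 30. Col3a1, the type III collagen of elastic tissues, ran from 150.1 to 380.0 (median 222) in the high arrays and from 66.3 to 116 (median 94.3) in the low arrays. These groups did not overlap either (log2 1.28, SE 0.12, adjusted p = 1.67e-07). Col1a1, the other chain of type I collagen, had 2 probesets that disagreed in size. The brighter one differed by 0.57 (SE 0.08, adjusted p = 0.000229) and the dimmer one, at 79.9 to 214 in the high and 22.5 to 74.2 in the low arrays, by 1.53 (SE 0.16, adjusted p = 6.35e-07).

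Of 8 kept small leucine-rich proteoglycans, which bind collagen fibrils and set their spacing, 4 were higher and 4 did not pass. Of all kept probesets 0.326% were higher. Ogn (osteoglycin) ran from 85.9 to 254 with a median of 168 in the high arrays, against 31.1 to 79.2 with a median of 42.1 in the low arrays. It did not overlap (log2 1.70, SE 0.16, adjusted p = 1.67e-07), and its dimmer probeset, with 9 low arrays under 30, differed by 2.07 (SE 0.19). Fmod (fibromodulin) was at 56.0 to 120.1 in the high and 24.7 to 63.0 in the low arrays, where 2 low arrays reached the high range (log2 0.97, adjusted p = 3.09e-05). Bgn (biglycan, 0.66, adjusted p = 0.00015) and Omd (osteomodulin, 0.46, adjusted p = 0.0022) passed with smaller differences. Dcn (decorin, 0.51, adjusted p = 0.24) and Prelp (0.40, adjusted p = 0.0584) did not pass. The list median was 0.49, against -0.00 over all kept probesets.

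Most matrix genes did not pass. Of 74 kept genes in 5 matrix lists (fibrillar and other collagens, proteoglycans, glycoproteins and basement membrane), 11 passed as higher and 0 as lower, with a median of 0.10. Over all kept probesets 0.326% were higher and 0% lower. The fibrillar and fibril-associated collagens had 3 of 16 higher and a median of 0.04, and the 13 that did not pass lay between -0.19 (Col14a1) and 0.26 (Col9a2). Col8a2, a network collagen of type VIII known from the corneal endothelium, was the single call among 10 other collagens (log2 0.80, SE 0.14, adjusted p = 0.00201). It ran from 33.0 to 104 in the high and from 19.3 to 49.2 in the low arrays, so that 5 low arrays reached the high range. Among 23 glycoproteins, Efemp1 (a fibulin, 0.69), Mgp (a calcification inhibitor, 0.63) and Vtn (vitronectin, 0.44) passed, and Fn1 (fibronectin) did not (0.32, adjusted p = 0.143). The call of Vtn was lost in 16 of 26 fits that left out 1 array. None of 17 basement membrane genes passed, against 0.326% of all kept probesets, and their median was 0.03. Col4a1 of the vessel wall differed by 0.12 (adjusted p = 1). Of 20 kept genes that process collagen or cut matrix 0 passed by the probeset taken for the list, and the median was 0.07. A second, dimmer probeset of Timp3 was called, but its call was lost in 16 of the 26 fits that left out 1 array. Its log2 difference ran from 0.37 to 0.47 over those fits.

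The label of these arrays as meningeal was set beside a list of 25 markers of meningeal fibroblasts and arachnoid cells, without Igfbp2. The list was written with earlier results of these data known and is no independent check. Of 17 kept members, 10 were higher, against 0.326% of all kept probesets, and 7 did not pass, with a median of 0.67. The summed intensity of the 17 ran from 4132 to 8403 (median 5627) in the high and from 1733 to 2755 (median 2377) in the low arrays without overlap. Much of this sum was Ptgds, with medians of 3203 and 848, so that it largely repeats that gene. Ptgds, the prostaglandin D synthase of the leptomeninges, ran from 2361 to 5044 with a median of 3203 in the high arrays, against 489 to 1230 with a median of 848 in the low arrays. It had the smallest adjusted p of all probesets (log2 1.99, SE 0.15, adjusted p = 7.68e-09), and no low array reached the high range. Gjb2, a connexin of meningeal cells, was at 72.3 to 221 in the high and 21.0 to 70.0 in the low arrays (log2 1.56, adjusted p = 1.35e-06). Other markers were dim. Tbx18, a transcription factor of mesenchymal cells, was at 21.7 to 52.8 in the high and 14.9 to 32.2 in the low arrays and did not pass the filter on low values. Lum (lumican), at 27.3 to 69.1 in the high and 14.0 to 41.5 in the low arrays, did not pass it either. Pdgfra, a receptor that oligodendrocyte precursors share with fibroblasts, differed by 0.18 (adjusted p = 1).

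Of 11 kept transporters of the arachnoid barrier and leptomeninges, 4 were higher, 7 did not pass and the median was 0.08. Of all kept probesets 0.326% were higher. Slc13a3, a carrier of dicarboxylates, ran from 55.0 to 165 with a median of 106 in the high arrays, against 17.9 to 49.0 with a median of 25.3 in the low arrays. The groups did not overlap. Since 8 of the 13 low arrays lay under 30, the level above which a probeset was kept, Slc13a3 was kept through its other arrays, and its fitted difference of 1.67 (SE 0.15, adjusted p = 1.04e-07) is uncertain in size. Slc13a4, a sulphate carrier, was at 77.7 to 191 in the high and 28.0 to 61.8 in the low arrays, without overlap (2.84-fold, adjusted p = 3.53e-08). The amino acid carrier Slc6a20a differed by 1.38 and 1.21 in its 2 probesets, and the organic anion carrier Slc22a8 by 0.80 (adjusted p = 1.97e-05).

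**Figure D2:**
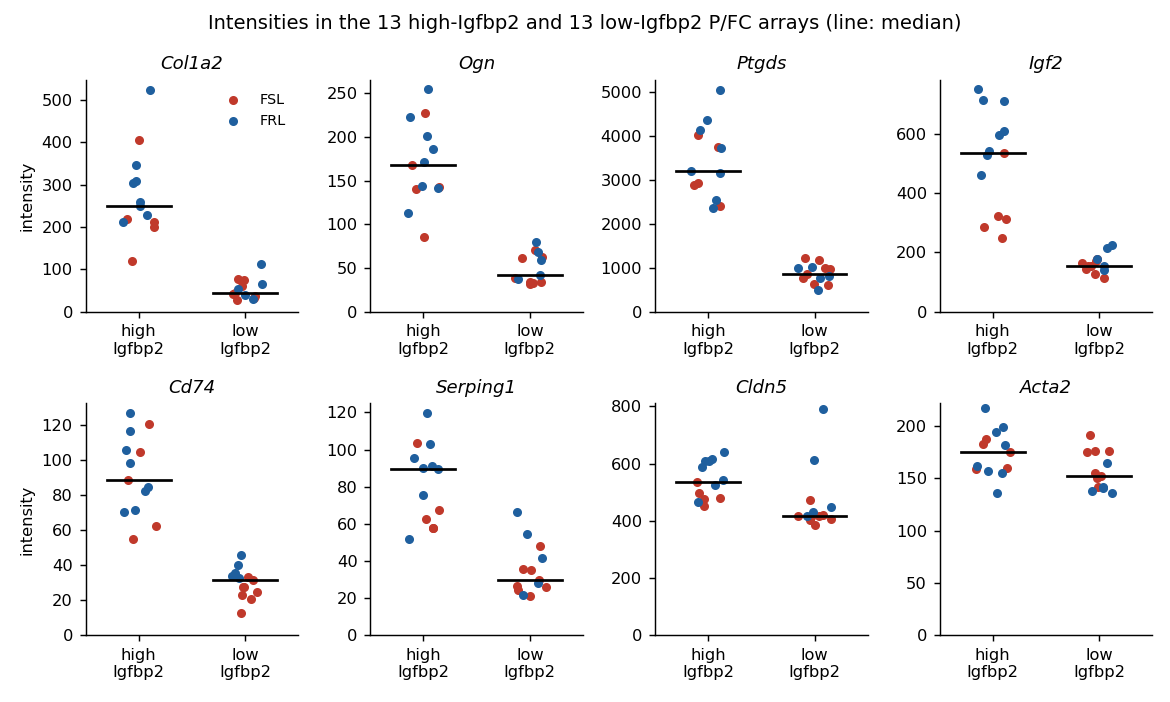
Intensity (linear axis from 0) of 8 transcripts in the 13 high-Igfbp2 and 13 low-Igfbp2 P/FC arrays, each point 1 array, coloured by line, with the median as a bar. Col1a2, Ogn, Ptgds, Igf2 and Cd74 do not overlap between the groups, 2 low arrays reach the high range in Serping1, and the vessel genes Cldn5 and Acta2 overlap.

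Of the signals that the meninges send to the brain, those of the retinoid and BMP pathways were among the calls. Aldh1a2, which makes retinoic acid, ran from 82.0 to 179 with a median of 98.8 in the high arrays, against 45.4 to 78.0 with a median of 60.2 in the low arrays. The groups did not overlap (log2 0.91, SE 0.11, adjusted p = 5.08e-06). The retinoic acid binding protein Crabp2 (0.67, adjusted p = 7e-05) and the retinol carrier Rbp4 (0.50, adjusted p = 0.000159) were higher with it. Bmp6, a bone morphogenetic protein, was higher in both probesets (0.67 and 0.65), and Sfrp1, a secreted Wnt antagonist, differed by 0.70 without overlap. Of 20 kept members of this list 5 were higher and 0 lower, with a median of 0.18. Over all kept probesets 0.326% were higher and 0% lower. The lists share genes, so that the counts of this list and of the meningeal markers are not separate results. In the insulin-like growth factor system, Igf2 ran from 248 to 749 with a median of 536 in the high arrays, against 114 to 224 with a median of 155 in the low arrays (log2 1.44, SE 0.12, adjusted p = 2.54e-08). Igf2 was the single call among 13 kept members. Igf1 differed by 0.18 and the receptor Igf1r by 0.00, and neither passed.

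No kept gene of the 2 vessel lists passed in this comparison. Called genes outside these lists, such as Vtn and Adgra2, were not counted here. The call of Adgra2 was lost in 15 of 26 fits that left out 1 array, and that of Vtn in 16. Tagln, a listed smooth muscle gene that was not kept, had a median of 37.7 in the high and 11.6 in the low arrays. In Tagln 12 low arrays lay under 30 and 4 reached the high range. Sele, Selp, Cnn1 and Kcnj8, also not kept, overlapped more. Of 39 kept endothelial and mural genes, 0 were higher and 0 lower with limma, against 0.326% higher and 0% lower of all kept probesets. At that share, 0 calls do not set 39 genes apart. The count was also 0 with the plain analysis of variance, and the median was 0.10. Most differences were nonetheless positive, in 34 of the 39 genes against 49.6% of all kept probesets. Cldn5, the tight junction protein of brain endothelium, ran from 450.3 to 641 with a median of 536 in the high arrays, against 384 to 789.8 with a median of 419 in the low arrays. The groups overlapped, and the difference of 0.18 had an interval from 0.02 to 0.34 (adjusted p = 1). Pecam1, a junction protein of all endothelium, differed by 0.10 and Acta2, the actin of smooth muscle, by 0.17, both at an adjusted p = 1. The largest differences were those of Vwf, the clotting protein of larger vessels (0.56, SE 0.14, adjusted p = 0.144), and of the smooth muscle proteins Myl9 (0.46, SE 0.12, adjusted p = 0.15) and Myh11 (0.37, SE 0.09, adjusted p = 0.097). When log2 Igfbp2 was fitted as a slope over all 39 arrays, these 3 genes passed (adjusted p = 0.00165, 0.00031 and 0.00272) and the other 36 did not. In the group comparison, 2 vessel genes passed without FRL cohort 2 replicate 3 and 1 without FRL cohort 2 replicate 4.

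Among the immune transcripts, 8 of 92 kept genes in 7 lists were higher and 0 lower, with a median of 0.07. Over all kept probesets 0.326% were higher and 0% lower. Cd74, the invariant chain that guides MHC class II molecules, ran from 54.9 to 127 with a median of 88.8 in the high arrays, against 12.9 to 46.0 with a median of 31.6 in the low arrays. It did not overlap (log2 1.54, SE 0.15, adjusted p = 1.97e-07), though 6 low arrays lay under 30. RT1-Da, a class II chain, was at 53.3 to 116 in the high and 41.2 to 87.6 in the low arrays, and 8 low arrays reached the high range (0.63, adjusted p = 0.00689). The other 5 kept class II genes did not pass. Serping1, the inhibitor of the first complement protease, ran from 51.7 to 119.9 with a median of 89.3 in the high arrays, against 21.4 to 66.5 with a median of 29.6 in the low arrays. The fitted difference was 1.16 (SE 0.15, adjusted p = 4.97e-05), and that of the complement protease C1r was 0.67 (adjusted p = 0.000462). In each of these complement genes 7 low arrays lay under 30, so that the sizes are uncertain.

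The remaining immune calls were Ifitm2 (0.80, adjusted p = 6.44e-06) and Ifitm3 (0.47, adjusted p = 0.00157), membrane proteins that restrict virus entry, the chemokine Ccl19 (0.40, adjusted p = 0.00414) and Olfml3, a secreted protein listed with microglia (0.30, adjusted p = 0.0123). Olfml3 was the single call among 13 microglial genes. Of 17 listed markers of perivascular and meningeal macrophages, 15 were on the array and 6 were kept, so that most were not tested. Medians of those not kept went both ways, as in Stab1 (20.3 high, 12.4 low) and F13a1 (18.2 high, 21.7 low). None of the 6 kept markers was called. Mrc1, a mannose receptor, was at 36.2 to 61.9 in the high and 21.8 to 47.6 in the low arrays (0.41, SE 0.11, adjusted p = 0.196). The lysozyme Lyz2 was at 0.35 (adjusted p = 0.219). As a slope over 39 arrays, Mrc1 (adjusted p = 0.00671) and Lyz2 (adjusted p = 0.0299) passed and the other 4 macrophage markers did not. None of 12 kept leukocyte markers, of 29 listed, passed, and their median was -0.03. The complement subunit C1qa, made by microglia, differed by 0.16 (adjusted p = 1), and the light chain of class I, B2m, also by 0.16.

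**Figure D3:**
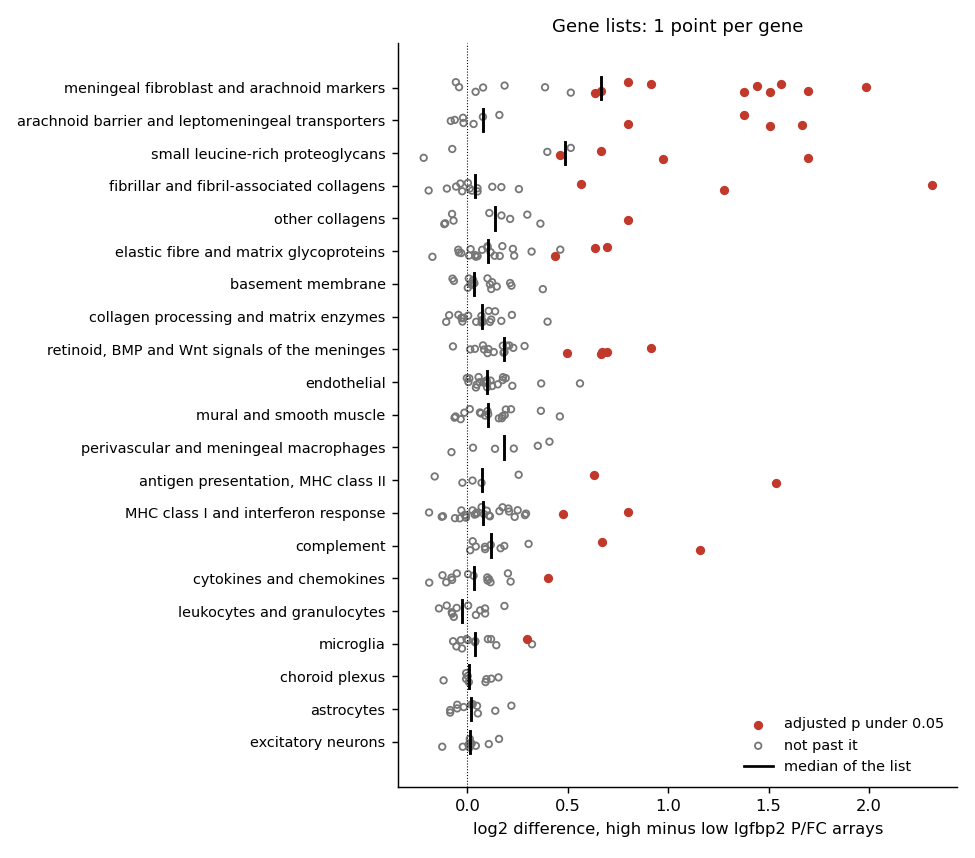
Log2 difference of high minus low Igfbp2 P/FC arrays for each kept gene of 21 lists, 1 point a gene, filled where the adjusted p from limma is under 0.05, with the list median as a bar. The meningeal markers have a median of 0.67, the small leucine-rich proteoglycans 0.49, the endothelial genes 0.10 and the choroid plexus markers 0.01.

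Outside the lists, the calls included Vim (vimentin, a filament of mesenchymal cells), at 299 to 614 in the high and 182 to 307 in the low arrays (0.98, SE 0.10, adjusted p = 4.21e-07). Dab2, an endocytic adaptor, differed by 1.29, the membrane-binding protein Anxa2 by 1.33, the scavenger receptor Colec12 by 1.22 and the matrix protein Sned1 by 0.93. Markers of other tissues gave no calls, with a single exception. The choroid plexus, the other site of Igfbp2, had a median of 0.01 and 0 of 9 kept markers higher, against 0.326% of all kept probesets. Its defining product Ttr (transthyretin) was at 71.2 to 207 in the high and 65.7 to 174 in the low arrays, and their summed intensity was 1165 to 1497 in the high and 941 to 1395 in the low arrays. The lists of astrocytes, oligodendrocytes, neurons and striatum had 0 calls each. The oligodendrocyte markers nonetheless all had positive differences, in 11 of 11 genes against 49.6% of all kept probesets, with a median of 0.14. Their part in the result was not tested. Of 4 ependymal markers Rarres2, a secreted attractant also made by fibroblasts, was higher (0.55, adjusted p = 0.0465), a call that was lost without 1 array in 20 of 26 cases. The 4 red blood cell markers did not pass but all had positive differences, with a median of 0.22 and a summed intensity of 896 to 2961 in the high and 799.6 to 3376 in the low arrays. With these markers as a covariate, an alternative chosen after seeing the data, 54 probesets were higher, 52 of the 73 among them.

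In 70 of the 73 called probesets the mean of the middle arrays, which entered no test of the groups, lay between those of the high and the low arrays. The choice of these probesets by a wide gap between the groups largely fixes that place, so it is a description only. Within the 13 middle arrays alone, 69 of the 73 had a positive rank correlation with Igfbp2, with a median of 0.48 against -0.01 over all kept probesets. After the means of each line in each cohort were removed, the correlation with Igfbp2 over 39 arrays was highest for Col1a2 (r = 0.96), Ptgds (0.95), Igf2 (0.95), Slc13a3 (0.95), Ogn (0.95), Col1a1 (0.94), Vim (0.94), Dab2 (0.93), Slc13a4 (0.93) and Gjb2 (0.93). These points share the depth and the RNA of an array and are given as a description. As a slope over 39 arrays, 117 probesets (0.523%) were higher with Igfbp2 and 4 lower, and all 73 of the group comparison were among the 117.

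**Figure D4:**
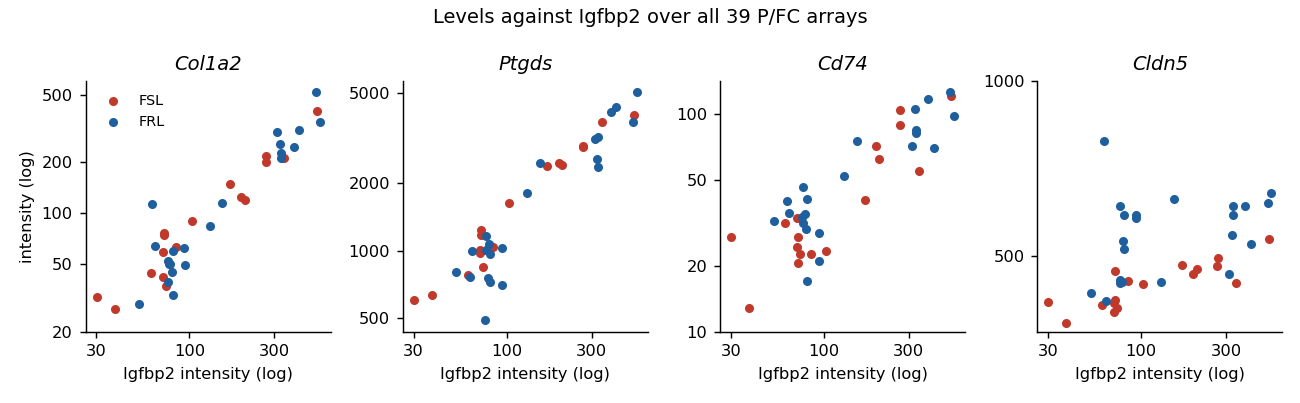
Intensity of Col1a2, Ptgds, Cd74 and Cldn5 against that of Igfbp2 in all 39 P/FC arrays, both on log axes, coloured by line. Col1a2 and Ptgds climb with Igfbp2 through the middle arrays (r = 0.96 and 0.95 within line and cohort), and Cldn5 does so less closely (r = 0.45).

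All 73 probesets had positive differences in FSL, in FRL, in cohort 1 and in cohort 2, a sign that their choice on the pooled arrays largely fixes. Fitted alone, FSL arrays kept 34 of the 73 calls, FRL arrays 28, cohort 1 arrays 40 and cohort 2 arrays 29. Col1a2 differed by 2.20 (SE 0.26) in FSL and 2.43 (SE 0.25) in FRL, and Cd74 by 1.76 (SE 0.22) in FSL and 1.32 (SE 0.15) in FRL. The difference between the lines in the contrast itself passed for 0 probesets with limma (734 higher and 427 lower at an unadjusted p under 0.05, 0 with the plain analysis of variance), and Igf2 had a line difference of -0.61 (adjusted p = 0.904). Between the cohorts it passed for 0 probesets as well (388 and 679 at an unadjusted p under 0.05, 0 with the plain analysis of variance).

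The HIP arrays, which had no part in choosing the groups, gave positive differences for most followers, and choroid plexus transcripts also went with Igfbp2 there. Igfbp2 in HIP ran from 158 to 1245 in its 13 highest arrays, against 70.9 to 105 in its 13 lowest. The HIP arrays of ranks 1 to 5 had 1245, 1129, 1052, 771 and 695, and that of rank 6 had 340. A slope over the HIP arrays therefore leans on those few arrays, and its dependence on them together was not tested. The HIP high group held 3 FSL and 10 FRL arrays and the low group 6 FSL and 7 FRL arrays. Of the 73 probesets, 66 were kept in HIP and 62 of these had a positive difference, with a median of 0.33 against -0.00 and 49.2% positive over all HIP probesets. No HIP probeset passed in the group comparison (0% of 21629 with limma, 1028 higher and 890 lower at an unadjusted p under 0.05, 0 with the plain analysis of variance). As a slope over 39 HIP arrays, 323 (1.49%) were higher with Igfbp2, 26 of the 66 followers among them. Igf2 (slope 0.75 log2 per log2, SE 0.03, adjusted p = 1.25e-19) and Slc13a4 (0.94, SE 0.05, adjusted p = 3.97e-18) were among them. The choroid plexus markers had 8 of 9 higher by slope and a median of 1.01 in the HIP groups. Ttr had a slope of 1.75 (SE 0.20, adjusted p = 3.19e-08).

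A single follower differed between the regions. Fkbp9, a chaperone of the endoplasmic reticulum, was at 102 to 222 in the high and 49.8 to 100.1 in the low P/FC arrays (0.75, SE 0.11, adjusted p = 0.000283) and differed by -0.14 (SE 0.12) in HIP. The contrast itself differed (P/FC minus HIP 0.89, adjusted p = 0.0426). Gjb2 differed by 1.13 between the regions (adjusted p = 0.0866), Colec12 by 1.01 (adjusted p = 0.173) and Ptgds by 1.04 (adjusted p = 0.202), and none of these passed. The fit takes the arrays of the regions as independent, and region and processing cannot be told apart because the regions were processed separately.

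**Figure D5:**
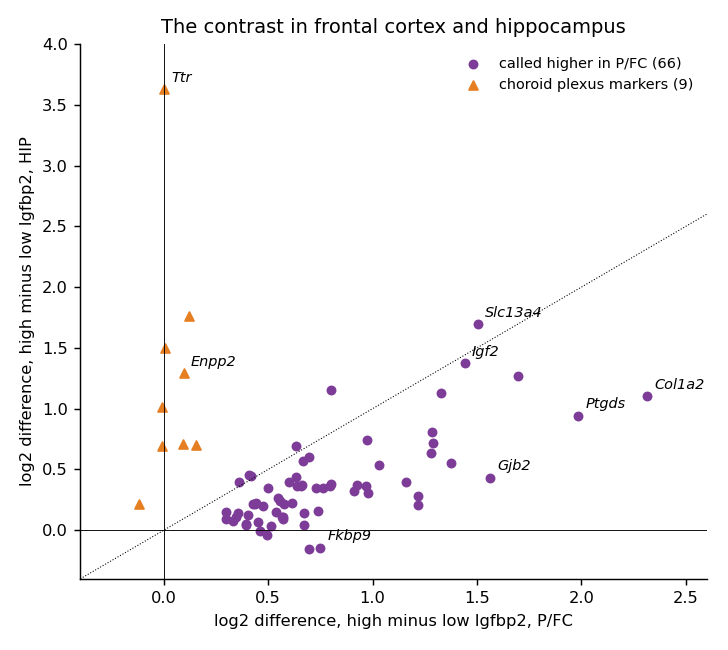
Log2 difference of high minus low Igfbp2 arrays in P/FC (x axis) and in HIP (y axis) for the 66 called P/FC probesets kept in HIP and for 9 choroid plexus markers, with the line of equal differences dotted. Followers lie mostly above 0 on both axes, and choroid plexus markers lie near 0 in P/FC (median 0.01) and high in HIP (median 1.01).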

How the data were processed

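Per the methods, RNA of each rat was hybridised to an Affymetrix Rat Genome 230 2.0 array, and the authors normalised the signals in Rosetta Resolver 5.1. The deposited values are linear intensities, some at or below 0 (16116 of 2425722). The members and gene lists were chosen with earlier results of these data known. Values were floored at 1 before log2, and 57 control probesets and that of Igfbp2 were set aside. A probeset was kept if it exceeded 30 in 50% or more of FSL and of FRL arrays. limma 3.58.1 (R 4.3.3) fitted group, line and cohort, with Benjamini-Hochberg adjustment over all kept probesets and a call at 0.05. Slopes, interactions and HIP were fitted alike. A labelling batch, part of the study's own model, could not be entered because no label holds it. Precision is limited by how many arrays there are. Platform annotation gave 1 symbol to 20826 of 31042 probesets, several to 436 and none to 9780. Each list took 1 probeset a gene. Some genes stand in more than 1 list, such as Lum among meningeal markers and proteoglycans, so that counts of different lists partly repeat the same genes. Named are Igfbp2, the first 3 and the 5 smallest p of each list, the 15 largest rises, the 10 largest falls (none passed), the 15 best correlated with Igfbp2 and the 5 smallest p of each difference test. Any other gene was chosen after its values were seen. Quality was tested with 100000 resamples in scipy. The fit was tested on simulated data.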

Additional observations from a re-analysis of the deposited data

Results flagged for a closer look

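Fkbp9 stood apart because its contrast between high and low Igfbp2 arrays differed between the regions, by 0.89 (P/FC minus HIP, adjusted p = 0.0426). The call is the single one among 20962 probesets kept in both regions, and its adjusted p is close to the threshold.

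Among 6 groups of line, cohort and region small enough for a test of a lone value, 1 array of FRL HIP cohort 2 lay far from the others in Igfbp2, at 1052 against a group median of 138. Chance marks about 1 in 20 such groups. None of the 3 P/FC groups tested had such an array.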

How the results depend on the processing

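The called probesets, chosen on these arrays, kept their sign in every alternative that tested them. Of the main counts (73 higher, 0 lower, 11 matrix, 0 vessel, 8 immune and 10 meningeal genes), the slope of Igfbp2 over 39 arrays gave 117 higher, 4 lower, 17 matrix and 3 vessel genes. With 10 arrays against 10 there were 1 lower and 7 matrix genes, with 19 against 19 there were 6 lower and 2 vessel genes, and ranks within line and cohort gave 3 lower and 2 vessel genes. Single strata held fewer arrays. Cohort 1 alone gave 45 higher, 1 lower, 7 matrix and 3 immune genes, cohort 2 alone 32, 3 matrix and 2 immune, FSL alone 37, 4 matrix and 3 immune, and FRL alone 28, 4 matrix and 1 immune. A filter at 100 left 20 higher, 2 matrix, 1 immune and 4 meningeal genes. No covariate, no filter and striatum markers as a covariate each gave 1 vessel gene, and the Gapdh ratio as a covariate 2. Separate means of the 4 line and cohort cells, the plain analysis of variance and the striatum covariate each gave 1 lower probeset, and the choroid plexus covariate 3. Leaving out 1 array gave 60 to 82 higher, 0 to 2 lower and 0 to 2 vessel genes.

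With the sample number within cohort as a replicate block, 80 probesets were higher and all 73 were kept. Over 17 number pairs the correlation of deviations ran from -0.14 to 0.37 (median 0.15, 10 pairs over 0.1), and the consensus correlation was 0.20. Not every pair was over 0.1, so the main fit did not pair the arrays by number. Arrays with unlike numbers were not compared in this way, so whether the numbers pair the arrays was not tested. In HIP the slope in place of groups gave 323 higher and 42 lower, against 0 and 0. Leaving out 1 HIP array, chosen after seeing the data, gave 215 (without FRL cohort 2 replicate 3) to 341 higher and 23 (without FSL cohort 1 replicate 3) to 49 lower. For dim probesets such as Slc13a3, low arrays near background limit the size of a fold.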
